A study of Mus musculus with 9 samples.

Results

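The genes described here are 10 regulators of epithelial-mesenchymal transition (EMT), measured in sorted mouse mammary tumour cells treated with the Wnt inhibitor Fzd8-CRD and in control tumour cells. They were taken by name from the array design, older synonyms included, and fall into 6 mesenchymal regulators (Snai1, Snai2, Zeb1, Zeb2, Twist1 and Twist2) and 4 epithelial regulators (Esrp1, Esrp2, Ovol1 and Grhl2). All 10 were among the 18212 genes tested. They had 18 probes of the 41174 on the array, and 14 of the 18 were bright enough to be kept.

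The 5 Fzd8-CRD arrays and the 4 control arrays each held RNA of freshly isolated GFP- cells of MMTV-Wnt-1 and MMTV-Her2 tumours, sorted by flow cytometry. In these models the mouse mammary tumour virus promoter drives Wnt-1 or Her2 mainly in mammary epithelium, and which of the models each array came from, like strain, age, dose and time of treatment, is not stated in the labels. Fzd8-CRD is the cysteine-rich part of the Wnt receptor Frizzled 8, and as a soluble protein it takes up Wnt ligands. The treatment text names this inhibitor for every array, and only the group label separates the controls, so what the controls received is not stated, nor is it stated which cells of the tumours carry GFP. The design text calls the arrays biological replicates without saying whether each was a separate animal.

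Tumour RNA carried the dye Cy5 and a common reference the dye Cy3, and each value below is a log2 ratio of Cy5 to Cy3 unless a single dye is named. The labels disagree on what the reference was, so a ratio is not a level, and ratios of different genes are not set against each other. The 5 Fzd8-CRD arrays lay on 4 slides and were scanned on 2 days, and the 4 control arrays shared 1 slide and 1 scan day. Slide, scan day and group therefore cannot be told apart. In Cy5, 52.5% to 60.0% of probes were well above background on Fzd8-CRD arrays, against 63.8% to 70.8% on control arrays. Control array 2 stood apart, with correlations over all genes tested of 0.722 to 0.737 with the other controls. The luminal keratins Krt8, Krt18 and Krt19, with Epcam and Cdh1, were well above background on every array. The same held for the basal markers Krt5, Krt14, Krt17 and Trp63 and the fibroblast markers Dcn, Lum and Col6a3. Because the samples are bulk RNA, fewer cells of a type and less RNA per cell cannot be told apart.

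In EMT, epithelial cells lose their junctions and apical polarity and take on a motile, mesenchymal form. Snail, Zeb and Twist family transcription factors drive it, in part by binding E-box sequences and repressing Cdh1, the gene of the junction protein E-cadherin. The epithelial state is held by the splicing regulators Esrp1 and Esrp2, which favour epithelial isoforms of transcripts such as Fgfr2, and by the transcription factors Ovol1 and Grhl2, which act against Zeb1 or for Cdh1. Wnt signalling bears on this balance, since active beta-catenin signalling is known to stabilise Snail protein in epithelial tumour cells.

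Among the 10 regulators, Twist1 rose with Fzd8-CRD, Zeb1 and Esrp1 fell, and 7 did not pass the test. Twist1 was 1.98-fold higher and Zeb1 2.05-fold lower in Fzd8-CRD cells on the ratio scale. The Esrp1 ratio was 3.00-fold lower, over a reference signal that was mostly not above background, and Esrp1 differed by -0.70 (log2) in the tumour dye alone. Over all genes tested, 14.4% passed the threshold (adjusted p under 0.05), 6.6% being higher and 7.76% lower in Fzd8-CRD cells. The same 3 regulators were the ones whose groups did not overlap, which was so for 19.6% of all genes. With 10 genes, 3 calls beside this background are not read as a property of the set.

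**Figure D1:**
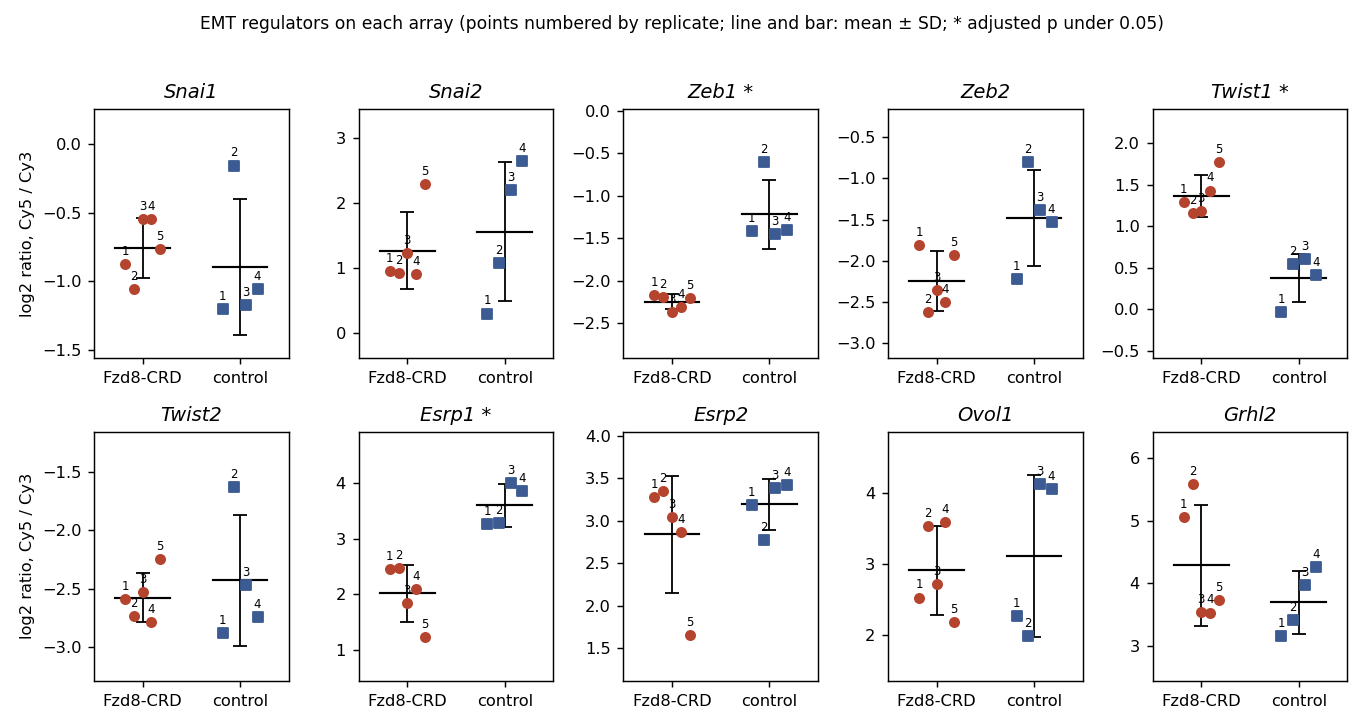
Log2 ratio of Cy5 to Cy3 for the 10 regulators on each of the 5 Fzd8-CRD arrays (red circles, left) and 4 control arrays (blue squares, right), with the replicate number over each point, the group mean as a line and the SD as a bar. Each gene has its own vertical scale. The groups are apart for Twist1, Zeb1 and Esrp1 and overlap for the other 7 genes.

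Twist1 encodes a basic helix-loop-helix factor that induces EMT and mesodermal programmes. Its ratio was 1.29, 1.16, 1.18, 1.43 and 1.77 on the 5 Fzd8-CRD arrays, against -0.04, 0.55, 0.60 and 0.41 on the 4 control arrays. Every Fzd8-CRD value lay above every control value. Twist1 rose by 0.99 (SE 0.18, adjusted p = 0.00957), with means of 1.37 ± 0.25 in Fzd8-CRD cells (SD, n = 5) and 0.38 ± 0.29 in control cells (SD, n = 4). The Cy5 signal alone, which holds the tumour RNA, differed by 1.04 (adjusted p = 0.0104), and the Cy3 reference differed by -0.13 (adjusted p = 0.105). Twist1 had 1 probe, which was well above background on all 9 arrays. It kept its direction under all 24 alternative settings and passed the threshold in 21 of them, some of which cannot change the ratio of a gene with 1 probe.

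The Twist1 probe is shown because a called gene rests on it alone, as the first 30 of its 60 bases, at chr12:34544793-34544852 (mm8, plus strand, the position in the Fzd8-CRD files). No annotation of that build was used, so exon or UTR is not stated for any probe.
Twist1 probe: atggtaacaatcagaggaattttaacacct

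Promoters of 4 of the 10 regulators (Snai1, Zeb2, Twist1 and Twist2) were in the RefSeq promoter table used here, and the 200 bases before the start were searched in their 7 windows. The motifs were the Snail-type E-box CAGGTG, which reads CACCTG on the other strand, and the TCF/LEF motif CTTTGAN, which reads NTCAAAG on the other strand. No window held the TCF/LEF motif, so no overlap of the motifs could arise. Snai1 held 1 E-box, 126 bases before its start, and the Twist1, Twist2 and Zeb2 windows held neither motif. Among 32817 promoter windows of this length, 13.9% held the E-box and 10.9% the TCF/LEF motif. The Twist1 window (chr12:33957471-33957670, plus strand) is given because Twist1 was the regulator that rose, and the Snai1 window (chr2:167537995-167538194, plus strand) because it holds the match, in capitals. Both are from RefSeq on GRCm38.p6.
Twist1 promoter: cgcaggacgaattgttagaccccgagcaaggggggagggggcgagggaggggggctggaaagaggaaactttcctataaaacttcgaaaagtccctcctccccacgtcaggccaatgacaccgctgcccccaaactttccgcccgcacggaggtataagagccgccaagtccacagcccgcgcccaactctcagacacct
Snai1 promoter: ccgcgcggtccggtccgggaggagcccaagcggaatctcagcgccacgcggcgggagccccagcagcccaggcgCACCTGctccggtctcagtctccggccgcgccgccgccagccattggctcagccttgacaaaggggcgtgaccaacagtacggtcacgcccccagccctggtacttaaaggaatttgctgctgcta

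Twist2, the closest relative of Twist1, did not pass the test. Its ratio was -2.58, -2.73, -2.53, -2.79 and -2.25 on Fzd8-CRD arrays, against -2.87, -1.63, -2.46 and -2.74 on control arrays. The groups overlapped, and control array 2 had the highest value of all 9. The difference was -0.15 (SE 0.24, adjusted p = 0.701), and it was 0.12 without control array 2. For Twist2 the reference dye itself was higher on Fzd8-CRD arrays, by 0.34 (adjusted p = 1.71e-05), and Cy5 alone differed by -0.09 (adjusted p = 0.68). In the reference dye, 59.2% of all genes passed between the groups of arrays, and Snai2, Zeb1, Twist2 and Grhl2 were among them.

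Zeb1, a zinc-finger and homeodomain repressor of epithelial genes, fell. Its ratio was -2.17, -2.19, -2.37, -2.31 and -2.21 on Fzd8-CRD arrays, against -1.41, -0.60, -1.45 and -1.41 on control arrays. All Fzd8-CRD values were below all control values, and control array 2 was the highest. The Zeb1 ratio averaged -2.25 ± 0.088 in Fzd8-CRD cells (SD, n = 5) and -1.22 ± 0.41 in control cells (SD, n = 4), and it fell by 1.03 (SE 0.18, adjusted p = 0.00912). Without control array 2 the difference was -0.83 (adjusted p = 0.00323). Cy5 alone differed by -0.97 (adjusted p = 0.00369) and the reference dye by 0.13 (adjusted p = 0.0101), so that most of the ratio difference lay in the tumour dye. Zeb1 had 1 probe, well above background on all 9 arrays.

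Zeb2, which shares targets with Zeb1, did not pass on the ratio scale. Its brightest probe read -1.81, -2.63, -2.35, -2.51 and -1.93 on Fzd8-CRD arrays, against -2.22, -0.80, -1.38 and -1.53 on control arrays. Only control array 1 fell within the Fzd8-CRD range. The difference was -0.76 (SE 0.28, adjusted p = 0.0988), with means of -2.24 ± 0.36 in Fzd8-CRD cells (SD, n = 5) and -1.48 ± 0.58 in control cells (SD, n = 4). In Cy5 alone Zeb2 passed, at -0.97 (adjusted p = 0.0158), where 19.1% of all genes passed, and without control array 1 the ratio passed as well, at -1.01 (adjusted p = 0.0319). The size depended on the setting, at -2.55 (adjusted p = 0.0114) with the scanner software's log ratio, -1.58 (adjusted p = 0.0448) with scaling between arrays and -0.33 (adjusted p = 0.321) with the mean of the probes. In Cy5 that probe exceeded background on 3 of 5 Fzd8-CRD arrays and 4 of 4 control arrays.

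The kept probes of Zeb2 disagreed in the ratio. The other kept probe differed by 0.10 (SE 0.17, adjusted p over all kept probes 0.706) in the ratio, and exceeded background on 2 of 5 Fzd8-CRD arrays and 4 of 4 control arrays. In Cy5 alone both were lower, the brightest at a mean of 6.85 in Fzd8-CRD cells and 7.82 in control cells, and the other at 6.76 in Fzd8-CRD cells and 7.30 in control cells. Of the probes that were not kept, one exceeded background on 0 of 5 Fzd8-CRD arrays and 1 of 4 control arrays and the other on none. The kept pair is printed, 30 of 60 bases each, because the brightest probe and its partner gave ratio differences of opposite sign. They lie at chr2:44809263-44809322 and chr2:44810557-44810616 (mm8, minus strand).
Zeb2 brightest probe: ctgtattttcgactgaaaattccactttct
Zeb2 other kept probe: acgaggaagacaatatggaagatggcatgg

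Snai1, the Snail repressor, did not differ detectably. Its ratio was -0.87, -1.06, -0.55, -0.54 and -0.76 on Fzd8-CRD arrays, against -1.20, -0.16, -1.17 and -1.05 on control arrays. Control array 2 was above all Fzd8-CRD arrays, while the other 3 control arrays reached no higher than -1.05. The difference was 0.14 (SE 0.23, adjusted p = 0.699). It was 0.38 without control array 2 (adjusted p = 0.0926), 0.04 without control array 1 and -0.22 with scaling between arrays.

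Snai2, which encodes Slug and in the mammary gland marks basal cells, varied more within groups than between them. Its ratio was 0.95, 0.92, 1.24, 0.91 and 2.29 on Fzd8-CRD arrays, against 0.30, 1.08, 2.20 and 2.64 on control arrays. Fzd8-CRD array 5 lay with control arrays 3 and 4, and the other values mixed lower down. The difference was -0.29 (SE 0.48, adjusted p = 0.697), and without control array 4 it was 0.07.

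Esrp1, an RNA-binding protein that keeps epithelial splicing patterns, fell. Its ratio was 2.45, 2.48, 1.84, 2.10 and 1.23 on Fzd8-CRD arrays, against 3.27, 3.28, 4.00 and 3.86 on control arrays. The groups were apart, and Fzd8-CRD array 5 was the lowest. The ratio fell by 1.58 (SE 0.28, adjusted p = 0.00917), with means of 2.02 ± 0.51 in Fzd8-CRD cells (SD, n = 5) and 3.60 ± 0.38 in control cells (SD, n = 4). In Cy5 alone the fall was smaller, -0.70 (adjusted p = 0.0119). The Cy3 reference of that probe exceeded background on 0 of 5 Fzd8-CRD arrays and 2 of 4 control arrays, so the ratio has a dim denominator. Between the groups the reference dye differed by -0.08 (adjusted p = 0.145). Why the ratio fell more than Cy5 alone was not tested. With the scanner software's own log ratio the difference was -0.25 (adjusted p = 0.681), and with scaling between arrays it was -0.48 (adjusted p = 0.144).

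The Esrp1 probe of the call lies at chr4:11259829-11259888 (mm8, minus strand), and a further probe at chr4:11284996-11285055 (minus strand) was above background in Cy5 on none of the 9 arrays and was not kept. Both are shown, 30 of 60 bases each, because the call rests on the probe given first.
Esrp1 probe of the call: taagaagaaagtaggggccaaaatttgaaa
Esrp1 dim probe: ccaaaaaagggtcacttttcagtcatgata

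Esrp2, the paralog of Esrp1, did not pass. Its brightest probe read 3.28, 3.35, 3.04, 2.86 and 1.66 on Fzd8-CRD arrays, against 3.19, 2.77, 3.39 and 3.42 on control arrays. Apart from Fzd8-CRD array 5 the groups covered the same range. The difference was -0.35 (SE 0.33, adjusted p = 0.481), and the second kept probe gave -0.60 (SE 0.32, adjusted p over all kept probes 0.223). In Cy5 alone the brightest probe differed by 0.09 (adjusted p = 0.807), and without Fzd8-CRD array 5 its ratio difference was -0.06. The second kept probe averaged 9.64 in Cy5 in Fzd8-CRD cells and 9.54 in control cells.

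Ovol1, a zinc-finger factor of epithelial differentiation, split the control arrays. Its ratio was 2.52, 3.53, 2.71, 3.59 and 2.18 on Fzd8-CRD arrays, against 2.26, 1.98, 4.12 and 4.06 on control arrays. Control arrays 3 and 4 exceeded every Fzd8-CRD array, and control array 2 lay below them all. The difference was -0.20 (SE 0.52, adjusted p = 0.814) and took the opposite sign in Cy5 alone, at 0.57 (adjusted p = 0.323). The second kept probe gave -0.59 (SE 0.40, adjusted p over all kept probes 0.327) in the ratio. In Cy5 alone that probe was higher, as the brightest was, at 8.41 in Fzd8-CRD cells and 8.26 in control cells. Its Cy3 reference exceeded background on 0 of 5 Fzd8-CRD arrays and 2 of 4 control arrays.

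Grhl2, an activator of Cdh1 and claudin genes, was not called. Its brightest probe read 5.06, 5.59, 3.54, 3.53 and 3.73 on Fzd8-CRD arrays, against 3.15, 3.41, 3.97 and 4.25 on control arrays. Fzd8-CRD arrays 1 and 2 stood above the other 7, and the rest overlapped. The difference was 0.59 (SE 0.47, adjusted p = 0.397), with means of 4.29 ± 0.97 in Fzd8-CRD cells (SD, n = 5) and 3.69 ± 0.50 in control cells (SD, n = 4). In Cy5 alone it was 1.23 (adjusted p = 0.0592), and with the scanner software's log ratio it was 1.32 (adjusted p = 0.039), which passed the threshold. Without Fzd8-CRD array 2 it was 0.27 (adjusted p = 0.662), and with the mean of the probes 0.10 (adjusted p = 0.837).

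In the ratio the second kept Grhl2 probe differed the other way, by -0.39 (SE 0.16, adjusted p over all kept probes 0.119), and its Cy3 reference exceeded background on 1 of 5 Fzd8-CRD arrays and 0 of 4 control arrays. In Cy5 alone that probe was higher, as the brightest was, at 7.30 in Fzd8-CRD cells and 7.05 in control cells. A further probe, which was not kept, exceeded background on 0 of 5 Fzd8-CRD arrays and 1 of 4 control arrays. The kept pair is printed, 30 of 60 bases each, because its ratio differences had opposite signs. They lie at chr15:37307958-37308017 and chr15:37254260-37254319 (mm8, plus strand).
Grhl2 brightest probe: aaattctaagaatggccctttctgaaggac
Grhl2 second kept probe: acaaggagagcttcaacaccatcgggaaca

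**Figure D2:**
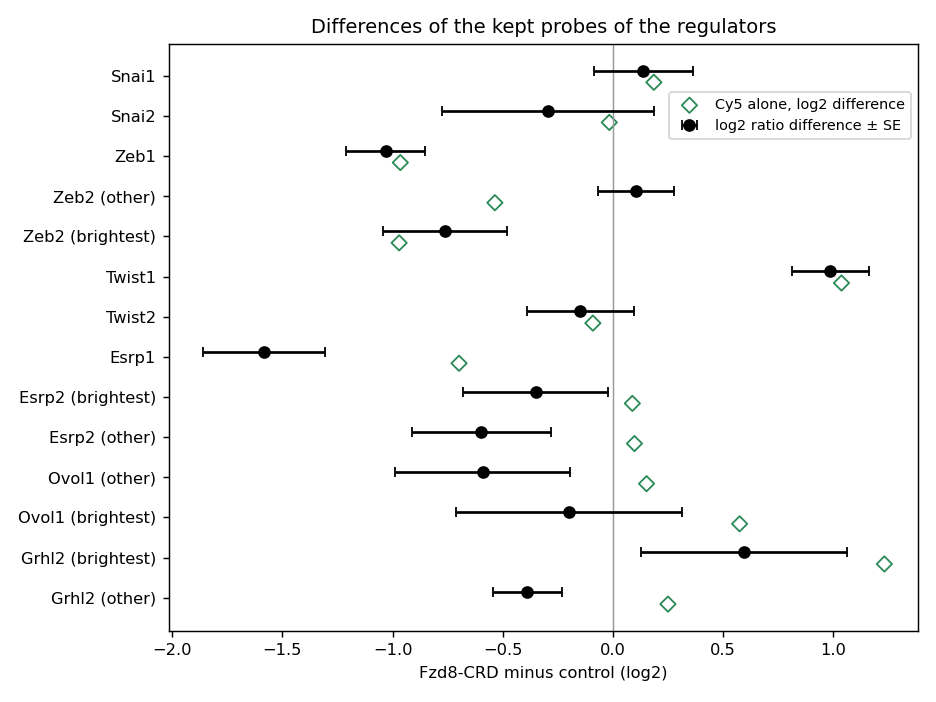
Difference between Fzd8-CRD and control arrays (log2, horizontal axis) for the 14 kept probes of the 10 regulators: black circles with bars are the ratio difference ± SE, green diamonds the Cy5 signal alone. For Zeb1 and Twist1 both measures lie close together, and for Esrp1 they are -1.58 and -0.70. The kept probes of Zeb2 and of Grhl2 lie on opposite sides of 0 on the ratio scale.

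**Figure D3:**
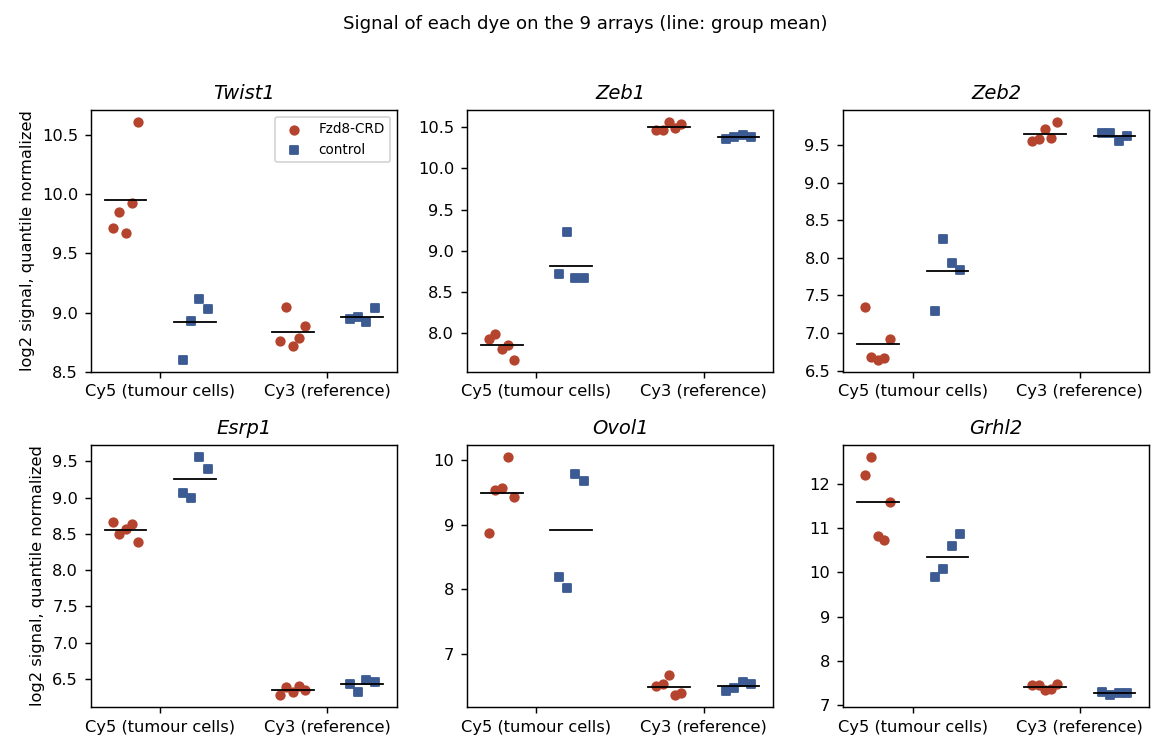
Quantile-normalized log2 signal of the tumour dye (Cy5) and of the reference dye (Cy3) for 6 regulators, with Fzd8-CRD arrays as red circles to the left of control arrays as blue squares and the group mean as a line. Each gene has its own vertical scale. The tumour dye separates the groups for Twist1, Zeb1 and Esrp1, and Grhl2 shows the spread among Fzd8-CRD arrays.

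The mesenchymal regulators had a median difference of -0.22 with 1 of 6 risen and 1 fallen, and the epithelial regulators a median of -0.27 with 0 of 4 risen and 1 fallen. The median over all genes was -0.07. The epithelial median turned to 0.92 with scaling between arrays, so no direction is given for either group as a whole.

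Endothelial, pericyte and erythrocyte lists held markers that fell in Fzd8-CRD cells, beside 7.76% of all genes that fell. All 8 endothelial markers fell, and the array medians of the list, relative to each gene's mean over the arrays, were -1.76 to -0.01 in Fzd8-CRD cells and 0.77 to 1.47 in control cells. Pericyte markers fell in 3 of 6 cases, with medians of -1.01 to 0.19 in Fzd8-CRD cells and -0.04 to 1.27 in control cells. Few fibroblast, macrophage or lymphocyte markers passed. The median differences of these lists were -1.0, -0.65 and -0.48, beside -0.07 over all genes. The fibroblast markers Col6a3, Mfap5, Lum, Pi16 and Dpt were lower at an unadjusted p under 0.05 in limma. So were the macrophage markers Mrc1, C1qa, Cd68, Lyz2 and Adgre1, and 5837 of all 18212 genes had such a p in either direction. The remaining fibroblast markers did not share this fall. Pdgfra differed by 0.81 (unadjusted p = 0.0503 in limma), Dcn by 0.04 and Fbln1 by -0.22. Of 8 fibroblast markers 1 fell, with medians of -0.79 to 0.15 in Fzd8-CRD cells and -0.69 to 1.22 in control cells. For macrophage markers 1 of 8 fell (-0.55 to 0.07 in Fzd8-CRD cells, -0.04 to 1.39 in control cells), and for lymphocyte markers 0 of 8 passed and 1 had an unadjusted p under 0.05 (-0.28 to -0.16 in Fzd8-CRD cells, -0.16 to 1.78 in control cells). Control array 2, where Zeb1, Zeb2, Snai1 and Twist2 were highest among the controls, also had the highest macrophage, lymphocyte and erythrocyte medians, at 1.39, 1.78 and 5.12. Its fibroblast, endothelial and pericyte medians were the highest too, at 1.22, 1.47 and 1.27, where control array 3 had 1.09, 1.29 and 1.16. For the mesenchymal marker genes described below, its median of 0.71 was likewise the highest. Cd8a and Cd79a, lymphocyte markers, were on none of the 5 Fzd8-CRD arrays well above background. Mrc1 and Dpt were so on 1 of 5, and the endothelial markers Pecam1 and Tek on 2 of 5. For erythrocyte markers 3 of 4 fell (-1.95 to -0.82 in Fzd8-CRD cells, 0.68 to 5.12 in control cells). The part of these cell types in the Zeb1 and Zeb2 differences was not tested.

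On the ratio scale, luminal and basal markers were called about as often as all genes (14.4%). In Cy5 alone 3 of 7 basal markers rose and 0 fell, where 10.2% of all genes rose, and 0 of 7 luminal markers passed. The basal marker called on the ratio scale, Krt5, differed by 0.09 in Cy5 alone (adjusted p = 0.795) and by -0.79 in the reference dye. In the ratio, of 7 luminal markers 0 rose and 1 fell (array medians -1.02 to 0.48 in Fzd8-CRD cells, 0.18 to 0.41 in control cells), and of 7 basal markers 1 rose and 0 fell (-0.29 to 0.61 in Fzd8-CRD cells, -0.55 to -0.18 in control cells). The part of these markers in the Twist1 and Esrp1 differences was not tested.

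Junction and polarity genes include targets of the regulators. Of 30 epithelial adhesion genes, 8 fell, 1 rose and 21 did not pass, with a median of -0.51, beside 7.76% of all genes lower and 6.6% higher. Without Fzd8-CRD array 1, control array 1 or control array 3, 4 of them passed, and without Fzd8-CRD array 5, 5 did. The median turned to 0.17 with the scanner software's log ratio, where 1 gene rose and 1 fell, and to 0.71 with scaling between arrays, where none passed. In Cy5 alone 4 of the 30 fell and 2 rose, where 19.1% of all genes passed in either direction. The tight junction gene Ocln fell by 1.57 (SE 0.31, adjusted p = 0.0135), the desmosomal cadherin gene Dsc2 fell by 1.39 (SE 0.23, adjusted p = 0.00786) and the polarity gene Pard6b fell by 1.25 (SE 0.21, adjusted p = 0.0078). In Cy5 alone Ocln (-1.05, adjusted p = 0.0465) and Pard6b (-1.36, adjusted p = 0.00444) passed, and Dsc2 did not (-0.69, adjusted p = 0.0708). With the scanner software's log ratio the Ocln difference was -0.08 (adjusted p = 0.859) and the Dsc2 difference 0.25 (adjusted p = 0.768), and with scaling Ocln was at -0.13, Dsc2 at -0.63 and Pard6b at -0.46, none of which passed. The desmosomal plaque gene Dsp rose by 1.26 (SE 0.18, adjusted p = 0.0053), and with the mean of its probes the difference was 0.45 (adjusted p = 0.0697). Cdh1 itself differed by -0.59 (SE 0.21, adjusted p = 0.0848) and Epcam by -0.26 (SE 0.25, adjusted p = 0.486), neither of which passed, and both turned positive with scaling between arrays, Cdh1 also with the scanner software's log ratio (0.34).

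The mesenchymal marker genes that were called lay in both directions, beside 6.6% of all genes higher and 7.76% lower, and their counts are not read as a property of the list. Of the 23 tested of 25 listed, 2 rose, 3 fell and 18 did not pass, with a median of 0.39 that turned to -0.11 with scaling between arrays. Tagln, an actin-binding gene of contractile cells, rose by 1.62 (SE 0.33, adjusted p = 0.0135) and Cdh2, N-cadherin, by 1.36 (SE 0.37, adjusted p = 0.0402). Thy1 fell by 1.95 (SE 0.39, adjusted p = 0.0129), Fap, a fibroblast surface protease that exceeded background on 3 of 5 Fzd8-CRD arrays, fell by 0.90 (SE 0.20, adjusted p = 0.0175), and Vim, vimentin, fell by 1.17 (SE 0.33, adjusted p = 0.0451). Fn1, fibronectin, differed by -1.19 (SE 0.49, adjusted p = 0.131), by -0.58 without control array 2 and by -0.54 with the mean of its probes. Cdh2 missed the threshold without Fzd8-CRD array 1, 2 or 5 and without control array 1, 2 or 3, at differences of 1.06 to 1.47. Vim missed it without Fzd8-CRD array 2, 3, 4 or 5 and without control array 2, 3 or 4, at -1.24 to -0.97, and Fap without control array 3, at -0.82. The count was 3 without Fzd8-CRD array 2 or 5, 2 without control array 3, and 7 without control array 1. Acta2, Pdgfra and Pdgfrb of this list are also in the basal, fibroblast and pericyte lists.

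The other EMT transcription factors gave 1 call among 22 tested of 24 listed, where 14.4% of all genes were called. Ehf, an epithelial Ets factor, fell by 1.42 (SE 0.35, adjusted p = 0.0282), with a list median of -0.13. With the scanner software's log ratio its difference was 1.67 (adjusted p = 0.0245), in the opposite direction. It missed the threshold without Fzd8-CRD array 4 (adjusted p = 0.0547) and without control array 2, 3 or 4 (adjusted p = 0.0523, 0.0669 and 0.059).

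Transforming growth factor beta is a classical inducer of the mesenchymal regulators. None of its 16 input genes passed in limma, where 14.4% of all genes did. Of the 16, 5 had an unadjusted p under 0.05, and the median was 0.14. The largest differences were those of Smad7, an inhibitory Smad gene, at 0.61 (SE 0.25, adjusted p = 0.129), and Skil, a Smad corepressor gene, at 0.60 (SE 0.18, adjusted p = 0.0541). Without control array 1 the Smad7 difference was 0.32. In the other direction, and chosen after their values were seen, the ligand gene Tgfb2 differed by -0.45 (SE 0.14, adjusted p = 0.0565) and Ltbp1, a latent TGF-beta binding protein gene, by -0.51 (SE 0.18, adjusted p = 0.0907). In Cy5 alone Tgfb2 differed by 0.05 (adjusted p = 0.874) and Ltbp1 by 0.17 (adjusted p = 0.586), and the reference dye differed by 0.34 and 0.56. Tgif1 had the lowest difference of the list, -0.55 (SE 0.25, adjusted p = 0.167), and -0.58 in Cy5 alone (adjusted p = 0.184). With Cy5 alone 2 of the 16 rose, where 10.2% of all genes did. Without control array 2 the count was 3, and without Fzd8-CRD array 3 or 4 it was 1. Without Fzd8-CRD array 4 the gene was Skil (0.68, adjusted p = 0.0478), whose difference was -0.21 with the mean of its probes.

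**Figure D4:**
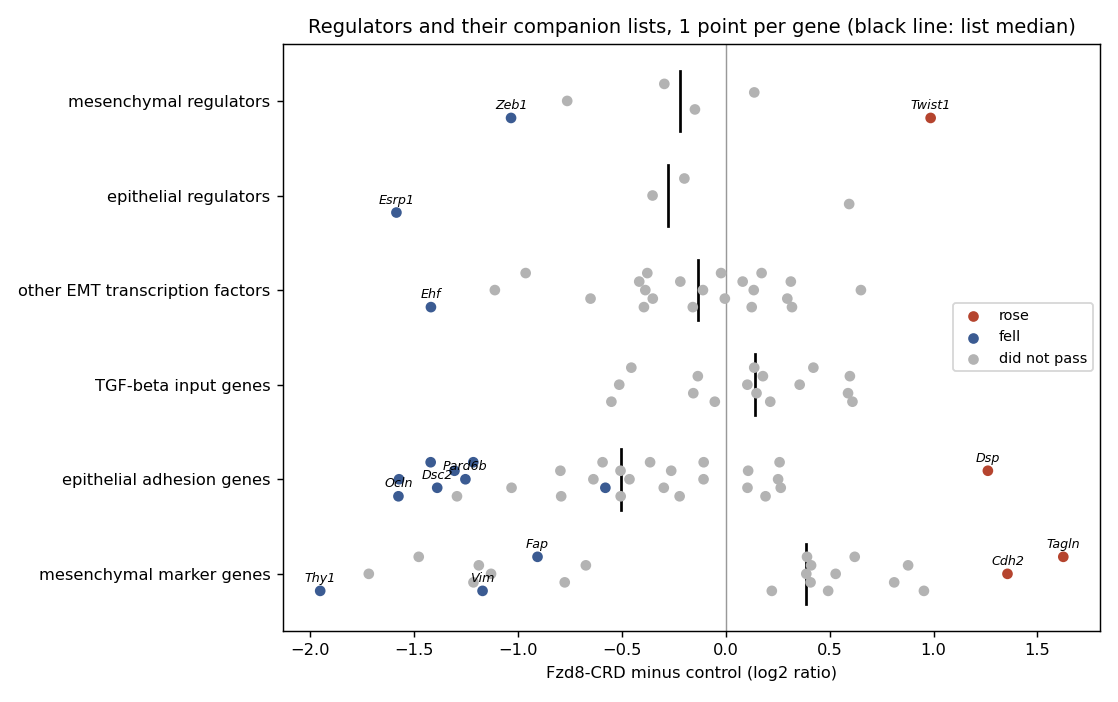
Difference between Fzd8-CRD and control arrays (log2 ratio, horizontal axis) for the regulators and their companion lists, 1 point per gene, coloured red where it rose, blue where it fell and grey where it did not pass, with the list median as a black line. The medians are -0.22 for mesenchymal and -0.27 for epithelial regulators and -0.51 for adhesion genes. The last of these is 0.71 and the epithelial one 0.92 with scaling between arrays.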

How the data were processed

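Per the file headers, Agilent Feature Extraction 9.5.3.1 produced the deposited intensity values, a mean signal and a local background median for each spot and dye. The log10 ratio deposited beside them is that software's own, and the deposited series table holds linear ratios, which correlated at 1 with it on the log scale on every array. From the deposited intensities, background was corrected with normexp (offset 50) in limma 3.58.1 under R 4.3.3 and ratios were normalized within arrays by loess. Control spots, 1229 outlier spots and probes that exceeded background in Cy5 on fewer than 4 arrays were left out. The brightest kept probe stood for a gene. Groups were compared with limma's moderated test, with Benjamini-Hochberg adjustment over all 18212 genes and a threshold of 0.05. Cy5 and Cy3 were also fitted separately, quantile-normalized. Genes were named through RefSeq accessions, current symbols, synonyms or the file's own name.

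The test was also run on simulated data, drawn from each gene's mean and residual spread with independent noise, so likeness between arrays was not simulated. The 24 alternatives are reported in the closing section. Members and lists were chosen with earlier results of these data known. All 10 members were named. From each companion list came up to 4 called genes with the smallest p or, where none was called, the 2 with the largest absolute difference, and 5 genes were fixed (Cdh1, Epcam, Vim, Cdh2 and Fn1). The number of arrays limits the precision.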

Additional observations from a re-analysis of the deposited data

Results flagged for a closer look

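Of 50 groups of values checked with Dixon's test, 6 held an array far from the rest, where chance flags about 1 in 20 groups. Control array 2 was far above the other control arrays for Snai1 (-0.16, others -1.20 to -1.05), Zeb1 (-0.60, others -1.45 to -1.41) and Fn1 (-0.87, others -3.34 to -3.16). Fzd8-CRD array 5 was high for Snai2 (2.29, others 0.91 to 1.24) and low for Esrp2 (1.66, others 2.86 to 3.35). Fzd8-CRD array 3 was high for Epcam (4.24, others 3.01 to 3.31).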

How the results depend on the processing

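Twist1, Zeb1 and Esrp1 kept their direction under all 24 alternatives and passed in 21, 23 and 20 of them, including all 9 that leave out an array. With the closest pairs of arrays averaged they missed the threshold (1.06, -1.12 and -1.59, adjusted p = 0.0547, 0.0534 and 0.0529). Twist1 missed it also with median centring (1.13, adjusted p = 0.0769) and scaling (adjusted p = 0.0736), and Esrp1 with scaling, the scanner ratio and the series table. Not all of the 24 alternatives could change these results. Quantile normalization of mean intensity leaves ratios as they are, and its 2616 calls were those of the main fit. The series table repeats the scanner ratio. For Twist1, Zeb1 and Esrp1, averaging probes or changing the filter returned the main difference. For counts that moved, the cause was not tested. All genes gave 2616 calls, against 6920 with array weights, 5503 with slide as a random block (correlation -0.168), 1626 with scaling, 614 with median centring and 354 with closest pairs averaged. With array weights the counts were 4 mesenchymal and 2 epithelial regulators, 5 other factors, 7 TGF-beta genes, 16 adhesion genes and 13 mesenchymal markers. With closest pairs averaged they were 0, 0, 0, 0, 1 and 0. Median centring gave 1 mesenchymal regulator, 0 other factors, 3 adhesion genes and 2 mesenchymal markers. Scaling gave 0 epithelial regulators, 0 adhesion genes and 2 mesenchymal markers. The scanner ratio and the series table gave 3 other factors, 3 TGF-beta genes and 2 adhesion genes each, and their 1 epithelial regulator was Grhl2, which rose. Slide as a random block gave 4 other factors, 5 TGF-beta genes and 9 mesenchymal markers. The mean of probes gave 3 other factors, an offset of 16 gave 0, Cy5 alone 2 TGF-beta genes, no background correction 1, and no filter 1 of these and 3 mesenchymal markers. Leaving out 1 array gave 1341 to 3088 calls over all genes, 2 to 3 mesenchymal regulators, 1 to 1 epithelial regulators, 0 to 1 other factors, 0 to 3 TGF-beta genes, 4 to 8 adhesion genes and 2 to 7 mesenchymal markers. The lowest counts over all genes were without control arrays 3 (1341) and 4 (1617) and without Fzd8-CRD array 1 (1505).

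Signs that turned were, with the scanner ratio and the series table, Cdh1 (0.34), Dsc2 (0.25), Ehf (1.67), Esrp2 (0.50) and Ovol1 (1.53). With scaling they were Cdh1 (2.53), Epcam (1.43), Esrp2 (0.82), Ovol1 (1.01), Snai1 (-0.22) and Snai2 (0.56). With Cy5 alone they were Esrp2 (0.087) and Ovol1 (0.57), with closest pairs averaged Ovol1 (0.098) and Snai2 (0.075), with no background correction Ovol1 (0.23), and with the mean of probes Skil (-0.21). Leaving out 1 array gave -0.57 to 0.14 for Ovol1, -0.71 to 0.067 for Snai2 and -0.30 to 0.12 for Twist2. Without Fzd8-CRD array 4 Skil passed (0.68), and without control array 3 Fap did not (-0.82). Dsp missed the threshold with median centring and scaling (adjusted p = 0.0536 and 0.0582), Ocln with median centring and closest pairs averaged (adjusted p = 0.056 and 0.0714). Dim signal limits Zeb2, Fap and the Cy3 reference of Esrp1, Ovol1 and the second Grhl2 probe. It also limits cell type markers such as Pecam1, Tek, Mrc1 and Dpt. No paired analysis was possible because the labels carry no replicate numbers shared by the groups.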
